A study of Mus musculus with 6 samples.

Results

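Acta1, Xirp2, Cnn1 and Sprr1a are genes that heart muscle is known to use when it is immature or stressed, and 3 of the 4 encode actin or a protein bound to it. They are 4 of the 617 genes in the deposited table of the study, and they were chosen by their difference between the same 6 libraries that are described here. Their values and fold changes are therefore given as a description, with no test.

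The study asked how the right ventricle (RV) of newborn mice responds to pressure overload (RVPO). RVPO was produced by pulmonary artery banding (PAB), in which a thread ties the artery down to a fixed width so that the RV ejects against a higher pressure. Bulk RNA sequencing of whole RV tissue gave 3 sham and 3 PAB libraries. Both groups were wild-type C57/BL6J pups operated on at postnatal day 1, male or female per the study's methods, and their RVs were taken at postnatal day 7. Sham pups had the same operation without the band. The labels' text on RNA extraction speaks of rat, while all their other fields say mouse, and mouse was used here. Whether a library held 1 RV or several is not given in the sources used here, so the SDs, standard errors and adjusted p-values measure only the spread between these samples, which may be technical.

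Actin filaments form the thin filaments of the sarcomere and also anchor the last sarcomere of a cardiomyocyte to the intercalated disc, where neighbouring cells join. The fetal heart makes skeletal and smooth muscle isoforms of actin and of actin-binding proteins, which give way to cardiac isoforms as the ventricle matures. A ventricle under load is known to take up many of these fetal genes again, together with natriuretic peptides and stress-induced proteins.

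By their low values, the deposited numbers are normalized read counts, that is, the reads of a gene divided by the size factor (relative depth) of its library. Size factors ran from 0.939 in PAB replicate 1 to 1.07 in sham replicate 2. The table holds a selection of genes that differed between the groups, each with a deposited log2 fold change of at least 1 in size, so the smallest changes and the medians below reflect that limit, and total reads per library were not used here. The table used here ends within its last row. Counts, ranks and shares therefore hold for the genes listed in it and not for all genes of the tissue. Fold changes below come from limma on log2(value + 1), which understates changes of genes with low values.

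PAB replicate 1 stood apart from the other libraries. Among the 290 listed genes with a higher mean in PAB on the log2 scale, PAB replicate 1 was the highest PAB library for 252, and among the 327 with a lower mean it was the lowest for 192. For the 290 higher genes, the median ratio of PAB replicate 1 to the mean of the other PAB libraries was 1.76. Each member is therefore given with and without this library.

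Acta1 (ENSMUSG00000031972) encodes skeletal muscle alpha-actin, the thin-filament actin of adult skeletal muscle and a sarcomeric actin of the immature heart. It lies on the minus strand at chr8:123891769-123894751 (GRCm38). Its normalized read count was 2978, 2462 and 2917 in sham replicates 1, 2 and 3 and 61076, 34096 and 44652 in PAB replicates 1, 2 and 3. The lowest PAB library was 11.4 times the highest sham library, so the groups did not overlap. The mean was 2786 ± 282 in sham and 46608 ± 13596 in PAB (SD, n = 3 each), a ratio of 16.7 and a log2 fold change of 4.03 (SE 0.286). Without PAB replicate 1 the ratio of means was 14.1. Among the 4 genes Acta1 varied least within PAB, with a coefficient of variation (CV, the SD as a percent of the mean) of 29.2%.

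Xirp2 (ENSMUSG00000027022) encodes a large Xin-repeat protein that binds actin filaments and sits at the intercalated disc. The gene spans chr2:67446002-67526614 on the plus strand. Sham replicates 1, 2 and 3 had 800.1, 868 and 814 normalized reads, and PAB replicates 1, 2 and 3 had 29423, 10179 and 9319. The sham libraries were close together, with a highest to lowest ratio of 1.08, whereas PAB replicate 1 was 3.02 times the mean of PAB replicates 2 and 3. All PAB values were above all sham values, the closest pair by 10.7 times. The mean rose from 827 ± 35.8 in sham to 16307 ± 11367 in PAB (SD, n = 3 each), a ratio of 19.7 and a log2 fold change of 4.09 (SE 0.394). Leaving out PAB replicate 1 lowered the ratio of means to 11.8, so its size depended on that library.

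Cnn1 (ENSMUSG00000001349) encodes calponin, an actin-binding protein that is a marker of differentiated smooth muscle and is also made in the embryonic heart. Its position is chr9:22099216-22109630 on the plus strand. The values were 122, 106 and 122 normalized reads in sham replicates 1, 2 and 3, against 681, 289 and 372 in PAB replicates 1, 2 and 3. Here the gap between the groups was the narrowest of the 4 genes, the lowest PAB library being 2.37 times the highest sham library. Means of 116 ± 9.33 in sham and 447 ± 207 in PAB (SD, n = 3 each) gave a ratio of 3.84 and a log2 fold change of 1.84 (SE 0.320). The ratio was 2.83 without PAB replicate 1.

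Sprr1a (ENSMUSG00000050359) encodes a small proline-rich protein, known from the cornified envelope of skin and as a stress-induced protein of cardiomyocytes and injured neurons. It is a short gene at chr3:92483952-92485895 on the minus strand. Sprr1a was close to 0 in sham, at 4.73, 2.81 and 2.10 normalized reads in replicates 1, 2 and 3, and reached 496, 111 and 60.6 in PAB replicates 1, 2 and 3. The sham values stand for 5, 3 and 2 reads, so the size of the change rests on 10 sham reads in all. The ratio of reads summed over each group, corrected for size factors, was 66.6 with an exact 95% interval of 36.0 to 140, which covers counting error only. The mean went from 3.21 ± 1.36 to 223 ± 238 (SD, n = 3 each), a ratio of 69.4 and a log2 fold change of 5.21 (SE 0.679). In PAB the SD exceeded the mean, and the size of the ratio depended on PAB replicate 1, without which it was 26.7.

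**Figure D1:**
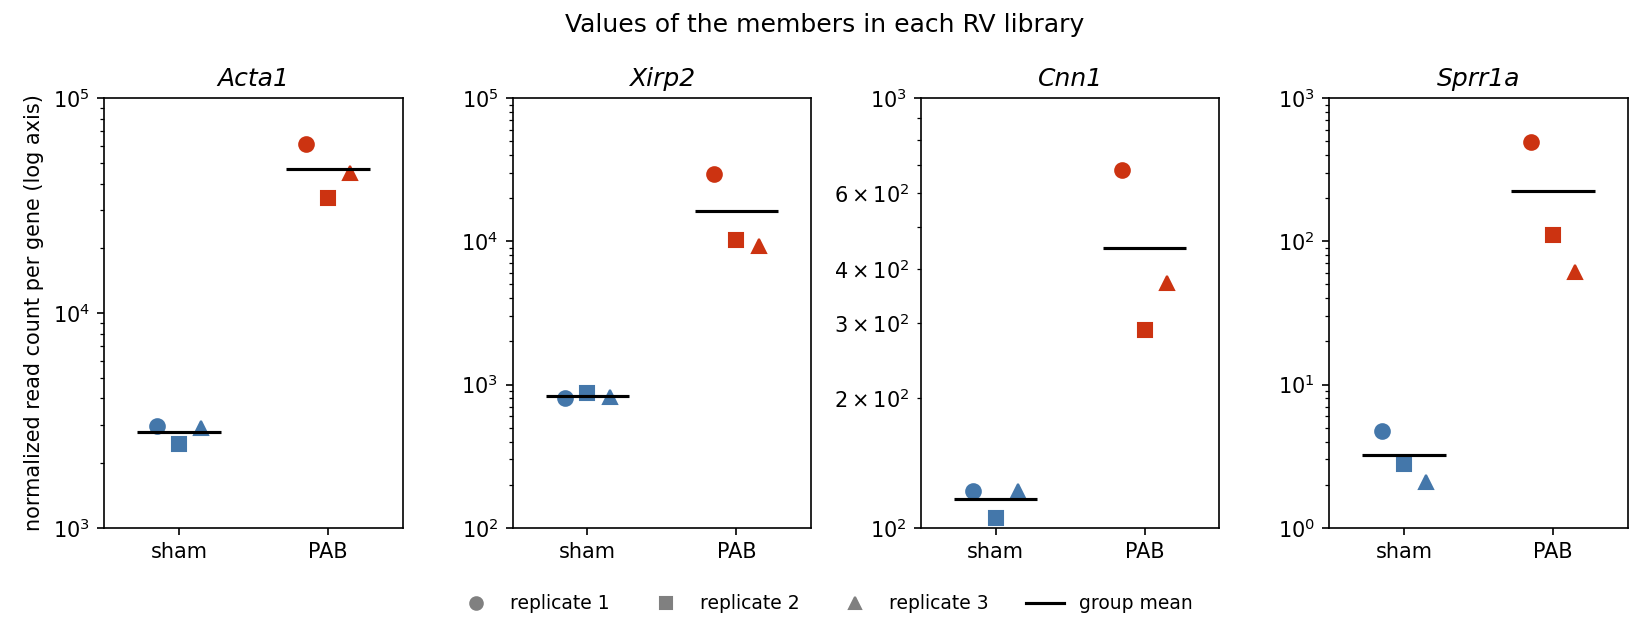
Normalized read count per gene (log axis, a separate scale in each panel) of Acta1, Xirp2, Cnn1 and Sprr1a in the 3 sham (blue) and 3 PAB (red) libraries; marker shapes are replicate numbers and black lines are group means. In each panel the PAB points lie above the sham points, and PAB replicate 1 is the highest point.

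In all 4 genes the PAB values were above the sham values without overlap, which was also so for 275 of the 617 listed genes (44.6%). With limma at an adjusted p under 0.05, 290 of the 617 listed genes (47.0%) were called higher in PAB and the other 327 lower. As the 4 genes and the table were selected on this contrast, nothing is read from these counts. By log2 fold change Sprr1a had rank 2 among the 290 higher genes, Xirp2 rank 8, Acta1 rank 10 and Cnn1 rank 87. The place of Sprr1a depended on the pseudocount: with 10 in place of 1 its log2 fold change was 3.63, below Xirp2 (4.07) and Acta1 (4.02). The log2 fold changes of Acta1 and Xirp2 differed by less than either standard error with all 6 libraries, but not in each setting. Without PAB replicate 1 they were 3.81 (SE 0.181) for Acta1 and 3.56 (SE 0.171) for Xirp2, in the other order and further apart than either standard error.

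The 4 genes did not follow the same order within PAB. Acta1 and Cnn1 were highest in PAB replicate 1, then 3, then 2, an order held by 53 of the 290 higher genes. Xirp2 and Sprr1a ran from replicate 1 over 2 to 3, as did 199 of the 290. The PAB CV was 46.2% for Cnn1, 69.7% for Xirp2 and 107% for Sprr1a, all above the median of 40.2% for the 290 higher genes, and that of Acta1 was below it. Sprr1a thus stood near the top of that range, with 3 of the 290 genes having a larger PAB CV, and Acta1 in its lower part, with 205 having a larger one. PAB replicate 1 exceeded the mean of the other PAB libraries 5.78 times for Sprr1a, 2.06 times for Cnn1 and 1.55 times for Acta1.

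Levels can be set side by side between genes after division by gene length. On this scale (normalized reads per kilobase) the order of the 4 genes in sham was Acta1, Xirp2, Cnn1 and Sprr1a, with means of 1814 ± 183, 69.1 ± 2.99, 42.6 ± 3.41 and 3.98 ± 1.69 (SD, n = 3). No neighbours in this order overlapped in the sham libraries. In PAB the means were 30344 ± 8852 for Acta1, 1361 ± 949 for Xirp2, 276 ± 296 for Sprr1a and 163 ± 75.5 for Cnn1. Sprr1a and Cnn1 were not separated in PAB. Sprr1a was above Cnn1 in replicate 1 (616 against 249) and replicate 2 (138 against 105), and below it in replicate 3 (75.2 against 136).

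In PAB, Acta1 was the most abundant of the 616 listed genes with a length. Its rank by normalized reads per kilobase was 17, 19 and 17 in sham replicates 1, 2 and 3 and 1 in each PAB library. In sham the first rank belonged to Pln, which encodes phospholamban, the regulator of the calcium pump of the sarcoplasmic reticulum. The genes after Acta1 in PAB included Nppb and Nppa, which encode the natriuretic peptides BNP and ANP, and Ankrd1, which encodes a stretch-responsive ankyrin repeat protein of the sarcomere. Xirp2 moved from ranks 212, 199 and 215 in sham to 17, 34 and 32 in PAB.

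A ratio between genes of 1 library does not depend on its size factor. Xirp2 had 3.44, 4.52 and 3.58 normalized reads per kilobase for each 100 of Acta1 in sham replicates 1, 2 and 3, and 6.18, 3.83 and 2.68 in PAB replicates 1, 2 and 3. The groups overlapped, with PAB replicate 1 above and PAB replicate 3 below the sham libraries. Cnn1 had 2.30, 2.41 and 2.34 per 100 of Acta1 in sham but 0.626, 0.475 and 0.467 in PAB. Every PAB library was below every sham library, and the mean ratio in PAB was 0.222 of that in sham, which states on another scale that the fold change of Cnn1 was smaller than that of Acta1. Sprr1a had 0.303, 0.217 and 0.137 per 100 of Acta1 in sham and 1.55, 0.621 and 0.259 in PAB. This ratio was higher in PAB replicates 1 and 2 than in any sham library, while PAB replicate 3 lay within the sham range.

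**Figure D2:**
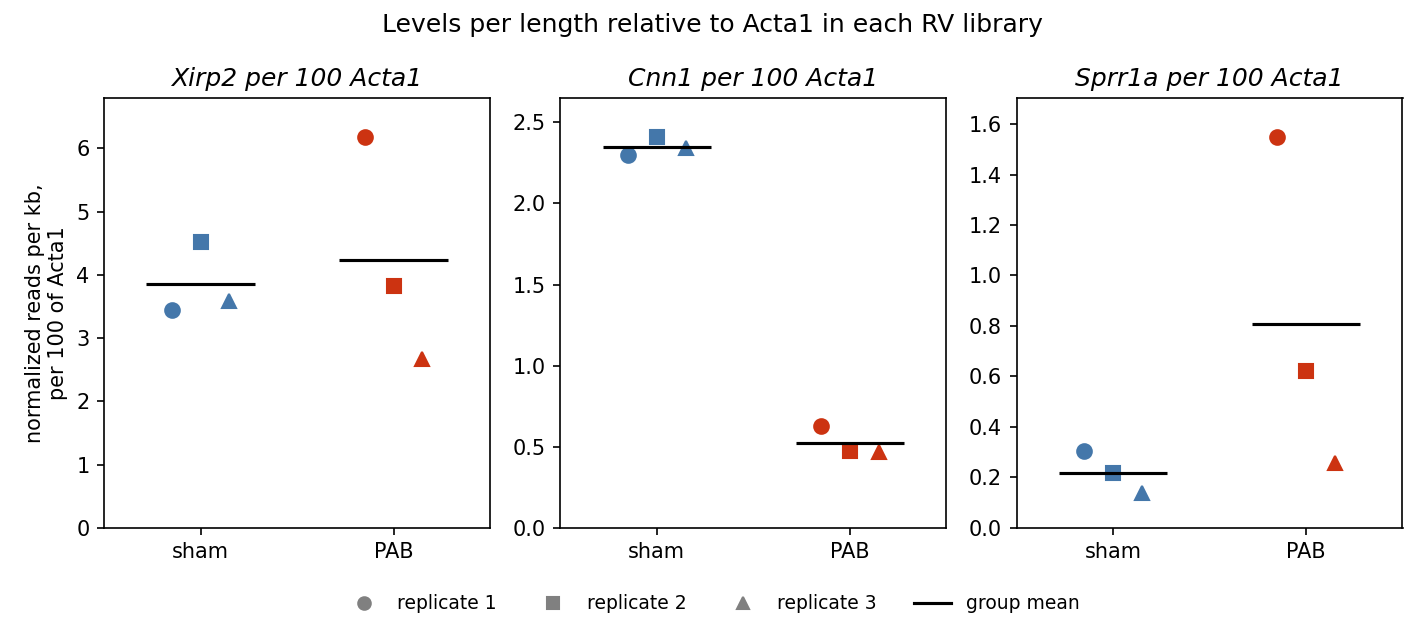
Normalized reads per kilobase of Xirp2, Cnn1 and Sprr1a for each 100 of Acta1 (linear axes from 0) in the 3 sham (blue) and 3 PAB (red) libraries; marker shapes are replicate numbers and black lines are group means. The groups overlap for Xirp2, PAB lies below sham for Cnn1, and for Sprr1a only PAB replicate 3 falls within the sham range.

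The natriuretic peptide genes, the usual reference for the fetal programme, differed from Acta1 in opposite ways. Nppa had 14.2, 13.9 and 11.7 normalized reads per kilobase per 100 of Acta1 in sham and 63.9, 48.0 and 19.9 in PAB, so it gained on Acta1 in each PAB library. Nppb fell relative to Acta1, from a mean of 173 ± 15.1 to 57.5 ± 7.88 per 100 of Acta1 (SD, n = 3 each), while its own normalized read count rose from 2452 ± 306 to 13416 ± 3330. Against Sprr1a the groups overlapped, Nppa having 6540 ± 1919 normalized reads per kilobase per 100 of Sprr1a in sham and 6512 ± 2069 in PAB. The sham value of that ratio has the few Sprr1a reads as its denominator.

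Of 35 fetal and stress genes of cardiomyocytes, 14 were listed, and the 10 besides the members were higher in PAB, each without overlap between the groups. Over all 617 listed genes, 275 were higher and 324 lower without overlap, so nothing is read from the lack of overlap. The median log2 fold change of the 10 genes was 1.76, beside a median of -1.03 over all 617 listed genes and 1.45 over the 290 higher ones. Nppa rose from 208 ± 26.6 to 12059 ± 8834 normalized reads, a log2 fold change of 5.60 (SE 0.440), the largest of the list. Its ratio of means was 58.1, and 34.2 without PAB replicate 1. Among the 10 genes besides the members, Nmrk2, a nicotinamide riboside kinase of muscle, came next at 3.80 (SE 0.269), then Nppb at 2.43 (SE 0.261). Ankrd1 (1.68), the LIM-domain gene Fhl1 (1.81), the matricellular gene Ctgf (1.72) and the uridine kinase gene Uck2 (1.61) changed about as much as Cnn1 on the log2 scale. The ratio of means of Fhl1 was 3.90, and 2.51 without PAB replicate 1. Rcan1, a calcineurin inhibitor, had a log2 fold change of 1.00, close to the limit of the table, and Gdf15 is a stress cytokine with 74.2 ± 28.6 normalized reads in sham and 162 ± 28.4 in PAB. Without PAB replicate 1 the median log2 fold change of the 14 genes was 1.47 in place of 1.84. The remaining genes of the list, such as Myh7, Acta2 and Xirp1, were not analysed here.

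Of 108 genes for actins, actin-binding and actin-anchoring proteins, 9 were listed. Besides Acta1, Xirp2 and Cnn1, 4 were called higher and 2 lower in PAB, with a median log2 fold change of 1.15 over these 6 genes, beside 290 higher and 327 lower and a median of -1.03 over all 617 listed genes (1.45 over the higher ones). Tpm2, which encodes a tropomyosin that winds along the actin filament, rose from 1607 ± 177 to 4703 ± 261 normalized reads, a log2 fold change of 1.55 (SE 0.222). Its PAB libraries were close together at 4982, 4466 and 4660, unlike those of Xirp2. Enah, which promotes filament elongation, had a log2 fold change of 1.22, and Synpo, an actin bundler, 1.28. Abra, which encodes an actin-binding protein of the sarcomere, had 1.08. Pdlim4, which joins actin to alpha-actinin, fell, with a log2 fold change of -1.22. No cardiac or smooth muscle actin gene was analysed here, so the share of Acta1 in all actin RNA is not given.

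Of 45 sarcomere genes, 8 were listed, 4 called higher and 4 lower in PAB, with a median log2 fold change of -0.03. The share called higher was near the 47.0% over all 617 listed genes, whose median was -1.03, so nothing is read from the split. Des, which encodes the intermediate filament desmin, rose from 19310 ± 425 to 39958 ± 14985 normalized reads (log2 fold change 0.98). Casq1 (1.72), Myoz1 (1.58) and Trim54 (1.22) rose on the log2 scale, and these encode a calcium store protein, a Z-disc protein and a microtubule-associated ubiquitin ligase. Among the genes that fell were isoforms of fast and slow skeletal muscle, Tnni2 (-2.85), Myl1 (-1.30) and Tnnt1 (-1.03). The titin cap gene Tcap (-1.17) fell as well. Genes of skeletal muscle went both ways, as Casq1, which rose, is on the list of skeletal muscle markers together with Tnni2.

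Small proline-rich and cornified envelope genes were represented by 2 of 32. Besides Sprr1a this was Tgm2, a transglutaminase, an enzyme class that cross-links small proline-rich proteins in skin. Tgm2 rose from 1837 ± 116 to 5124 ± 2862 normalized reads (log2 fold change 1.34, SE 0.345). Of 44 regulators of cardiac actin and stress genes, 2 were listed. Vgll3, a cofactor of TEAD transcription factors, was called higher with a log2 fold change of 1.20, and the cardiac transcription factor gene Tbx5 was called lower with -1.28.

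Genes called lower depended in part on how the libraries were scaled. Rescaling with median ratios taken over these genes raised the log2 fold changes by a median of 0.59 and gave 290 genes called higher and 188 lower, in place of 290 and 327. Median ratios take most genes as unchanged, whereas all listed genes were selected for a difference, with a median log2 fold change of -1.03. The shift therefore cannot be separated from the selection of the table, and the lost calls do not show which scaling is right. Of the genes named from the lists, Tnnt1, Tcap, Tbx5, Pln, Dpt and Krt7 were no longer called lower.

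The libraries are whole tissue, so more cells of a type and more RNA per cell, or fewer and less, cannot be told apart. Of 11 cardiomyocyte markers 2 were listed, Pln as the most abundant with a log2 fold change of -1.15, and Nppa. Their summed normalized reads were 21624, 22118 and 27231 in sham replicates 1, 2 and 3 and 31000, 19537 and 17432 in PAB replicates 1, 2 and 3, with overlap between the groups. The sum was above the sham range in PAB replicate 1 and below it in the other PAB libraries. It joins opposite changes, so the overlap does not mean that the markers were unchanged. Pln fell from 21385, 21925 and 27039 in sham to 9037, 10319 and 12438 in PAB replicates 1, 2 and 3. Nppa made up 21964, 9218 and 4995 of the PAB sums. Troponin, myosin and cardiac actin markers were not analysed here.

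Cnn1 was itself the 1 listed gene of 15 smooth muscle and pericyte markers, and Acta2, Tagln and Myh11 were not analysed here. The values of Cnn1 therefore do not tell cardiomyocytes from smooth muscle cells as its source. Vwf was the 1 listed gene of 10 endothelial markers, at 1488, 1334 and 1283 normalized reads in sham and 4791, 3251 and 1637 in PAB replicates 1, 2 and 3. Dpt was the 1 of 12 fibroblast markers, with 4720, 4759 and 4649 in sham and 1487, 2281 and 2511 in PAB. The endothelial marker was thus higher and the fibroblast marker lower in PAB, and both were most displaced in PAB replicate 1. Most listed genes shared this. That library was the highest in PAB for 252 of the 290 higher genes and the lowest for 192 of the 327 lower ones. Nothing is therefore read from the displacement, and the part of these markers in the result was not tested.

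Epithelial markers bear on Sprr1a, which is best known from skin. Of 10, 3 were listed, with summed normalized reads of 506, 440 and 508 in sham and 1611, 1112 and 1167 in PAB replicates 1, 2 and 3. Krt18 was the most abundant and had a log2 fold change of 2.17, Krt8 had 1.19 and Krt7 had -1.10. The keratins of stratified skin, Krt5, Krt14, Krt1 and Krt10, were not analysed here. Of 18 skeletal muscle markers, which bear on Acta1, Casq1 and Tnni2 were listed, with sums of 297, 230 and 222 in sham and 913, 671 and 548 in PAB. Casq1, the more abundant, was higher in PAB and Tnni2 was lower, at 38.8, 44.0 and 35.7 in sham and 2.13, 2.98 and 12.9 in PAB. The part of these markers in the result was not tested.

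Of 10 atrial cardiomyocyte markers, 4 were listed. Nppa, the most abundant, was higher in PAB, whereas Stard10 (-1.97), Kcnj3 (-2.15) and Tbx5 (-1.28) were lower on the log2 scale. The summed normalized reads of the 4 were 921, 986 and 973 in sham and 22151, 9420 and 5267 in PAB, where nearly all of it was Nppa. C1qa, the 1 listed of 13 leukocyte markers, fell from 670 ± 29.0 to 310 ± 38.0. Dbh, the 1 listed of 10 Schwann cell and neuron markers, fell from 124 ± 25.5 to 9.46 ± 4.06. None of the 7 epicardial or the 7 red blood cell markers was listed. Their part in the result was not tested.

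The listed genes most like each member were found by the root mean square difference of log2(value + 1) over the 6 libraries, after each profile was centred on its own mean. For Acta1 the closest was Xirp2, at 0.37, followed by Nmrk2 (0.41), the long noncoding RNA 4833412C05Rik (0.43), the collagen VIII gene Col8a1 (0.45) and the lipoprotein receptor gene Lrp8 (0.46). Xirp2 was closest to Lrp8, at 0.14, then Col8a1 (0.31), the ryanodine receptor gene Ryr3 (0.37), Acta1 (0.37) and Syndig1 (0.49). Lrp8 had 13.2, 16.8 and 16.8 normalized reads in sham and 573, 189 and 149 in PAB replicates 1, 2 and 3. Its PAB libraries thus stood in the same order as those of Xirp2, an order held by 199 of the 290 higher genes. As Lrp8 was picked for its likeness over these values, nothing is read from the shared order.

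For Cnn1 the closest were Gm19410 (0.16), Fhl1 (0.16), the keratin gene Krt80 (0.19), Ctgf (0.21) and Uck2 (0.21), of which Fhl1, Ctgf and Uck2 were also on the list of fetal and stress genes. Fhl1 had 2779, 2658 and 3398 normalized reads in sham and 19699.6, 7103 and 7683 in PAB replicates 1, 2 and 3. Its order within PAB was that of Cnn1, held by 53 of the 290 higher genes, and Fhl1 was likewise picked for its likeness. For Sprr1a the closest was Nppa, at 0.39, and the next were the mucin gene Muc15 (0.67), Xirp2 (0.74), Lrp8 (0.79) and the endothelin gene Edn3 (0.83). These lists depended on the measure. The difference grows with the size of the fold change, so its values are not compared between members. With profiles also scaled to unit SD, 0 of the 5 genes were shared for Acta1 and Sprr1a, 1 for Cnn1 and 2 for Xirp2.

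The annotation was searched for what could blur the counts. In the GENCODE M21 annotation of GRCm38, no exon of Acta1, Cnn1 or Sprr1a overlapped another gene. Xirp2 shared 168 of its 11979 exon bases with Gm13601 on the opposite strand, and whether the counting used strand is not given in the sources used here, so reads of the 2 genes cannot be told apart there. The longest coding transcripts had 7 exons and 1134 coding bases for Acta1, 9 and 11355 for Xirp2, 7 and 894 for Cnn1, and 2 and 435 for Sprr1a. No member lay near another listed gene, the closest being Zfp599, whose start was 148214 bases from that of Cnn1.

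Acta1 belongs to a family of near-identical actins, so its reads could be confused with theirs. Of the 1397 stretches of 50 bases in its longest coding transcript, 31 (2.22%) also occurred in another gene, among them the cytoplasmic actin genes Actb and Actg1. With each of the muscle actins Actc1, Acta2 and Actg2 the longest exact run was 29 bases. None of the other actins was analysed here.

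The promoters of the 4 genes are shown so that the letters before each start can be read side by side, with the motifs of factors known to act on cardiac stress genes in capitals. The sequences are RefSeq's for GRCm38.p6, 250 bases before each gene's start, left off where an annotated transcript begins. Both strands of each window were searched. The CArG box is known as the site of serum response factor, and the MCAT motif, CATTCC, is known for TEAD factors. The GATA motif was searched with the letters AGATAA. The core promoter element known as the TATA box was searched with TATAAA, and the AP-1 motif of Fos and Jun proteins with TGANTCA. Among 32851 promoters searched over the same 250 bases, 1.47% held a CArG box, 12.6% MCAT, 9.99% GATA, 12.4% TATA and 6.75% AP-1.
Acta1, chr8:123894776-123895025, minus strand: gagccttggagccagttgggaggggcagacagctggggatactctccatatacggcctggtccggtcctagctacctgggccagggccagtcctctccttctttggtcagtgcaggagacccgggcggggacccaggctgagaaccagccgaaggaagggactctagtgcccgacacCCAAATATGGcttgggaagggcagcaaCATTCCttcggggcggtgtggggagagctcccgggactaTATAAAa
Xirp2, chr2:67445752-67446001, plus strand: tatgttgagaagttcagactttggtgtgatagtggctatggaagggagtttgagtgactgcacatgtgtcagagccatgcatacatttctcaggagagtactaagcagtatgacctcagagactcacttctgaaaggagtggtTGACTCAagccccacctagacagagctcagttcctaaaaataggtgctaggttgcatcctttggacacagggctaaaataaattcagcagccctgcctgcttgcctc
Cnn1, chr9:22099003-22099215, plus strand: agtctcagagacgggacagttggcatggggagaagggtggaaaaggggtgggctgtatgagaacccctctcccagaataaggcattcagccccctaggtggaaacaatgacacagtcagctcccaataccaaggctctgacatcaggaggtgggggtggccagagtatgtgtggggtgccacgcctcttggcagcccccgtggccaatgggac
Sprr1a, chr3:92485896-92486131, minus strand: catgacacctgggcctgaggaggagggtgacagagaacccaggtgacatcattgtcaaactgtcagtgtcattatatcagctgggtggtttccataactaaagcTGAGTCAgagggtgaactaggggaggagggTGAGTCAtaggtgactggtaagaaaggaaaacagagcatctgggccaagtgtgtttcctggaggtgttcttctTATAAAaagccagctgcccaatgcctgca

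The windows differed in the letters they held. Acta1 had a CArG box 73 to 64 bases before the RefSeq start, MCAT 46 to 41 bases before it and TATA 7 to 2 bases before it. Its RefSeq start, at position 123894775, lies upstream of the GENCODE start at 123894751. Sprr1a had AP-1 at 146 to 140 and at 116 to 110 bases before its RefSeq start and TATA at 43 to 38. That start, at position 92485881, lies inside the gene as annotated by GENCODE, and the printed sequence ends before the GENCODE start. Xirp2 had AP-1 at 107 to 101 bases before its RefSeq start, and no searched motif was found in the window of Cnn1. None of these matches overlapped another, and no motif was common to the 4 windows. Promoters were found for 12 of the 14 listed fetal and stress genes, and a CArG box occurred in 2 of them (Acta1 and Fhl1), MCAT in 4 (Acta1, Nppb, Ankrd1 and Gdf15), GATA in 2 (Nppb and Ankrd1), AP-1 in 3 (Xirp2, Sprr1a and Rcan1) and TATA in 6. A listed gene was counted if any of its promoters held the motif, whereas the shares given above are per promoter. These counts are therefore not directly comparable with the shares. A match is a description of letters, and factor binding was not measured.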

How the data were processed

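RV tissue of 3 sham and 3 PAB samples was sequenced, and the labels gave the groups and the replicate numbers. Per the study's methods, the authors cleaned the reads, obtained a value per gene, named FPKM there, with featureCounts, and used DESeq2 for the difference between groups. The submitters' processing notes name HISAT2 2.0.5, StringTie 1.3.3b, featureCounts 1.5.0-p3, GATK 3.7 and mm10. The deposited values carry that name too, but they behave as a signal of another kind, namely read counts over a size factor of the library; this reading comes from the values and is not stated in the methods. Of the values under 50 steps (165 to 215 per library), 100% were whole numbers of steps to within 0.1, long and short genes alike, a step being the value of a single read. The deposited group means were not used. The log2 fold changes, p-values and adjusted p-values deposited by the authors were not used in any comparison (the log2 fold changes served only to find the smallest size listed), and the deposited gene length served for values per kilobase.

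The design assumed FPKM, and its test was kept because it suits a normalized signal. The 617 genes were compared on log2(value + 1) by limma 3.58.1 under R 4.3.3, with a trend in eBayes and two-sided p-values, with a minimum mean of 0.1, which removed no gene (lowest mean 8.54), and Benjamini-Hochberg adjustment over all of them at 0.05. The fit was tested on simulated data. As the table was selected on the same contrast, adjusted p-values over it describe these libraries. Depth is known from size factors alone, and 3 libraries a group limit the precision.

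The members and the gene lists were chosen with earlier results of these data known. Named genes are the 4 members, the 5 listed genes most like each, and the listed genes of the lists, at most about 12 of a list; names given as not analysed here are list genes outside the table. Alternatives were pseudocounts of 0.1 and 10, no filter, a minimum mean of 1, the replicate block, no trend in eBayes, leaving out each library, scaling by median ratios, and other measures of likeness. By Ensembl ID, 616 of the 617 genes had an entry in GENCODE M21, 597 of them at the same coordinates. Shared stretches were sought with blastn 2.17.0 (at least 100 bases at 95% identity) and as exact runs. Promoters of the 4 members were matched by symbol in the RefSeq table. Python 3.11.15, numpy 2.4.6, pandas 2.3.3, scipy 1.17.1 and matplotlib 3.10.9 were used. Protein sequences were not analysed here, and some genes of the lists and a shared stretch are not reported here.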

Additional observations from a re-analysis of the deposited data

How the results depend on the processing

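The value of Sprr1a was 3.63 with a pseudocount of 10, in place of 5.21, as its sham values are low. With median-ratio scaling, which shifted the fold changes by a median of 0.59, all 4 members moved up. This shift cannot be separated from the selection of the listed genes. Acta1 had 4.62 in place of 4.03 and Xirp2 4.68 in place of 4.09. Cnn1 had 2.43 in place of 1.84 and Sprr1a 5.71 in place of 5.21. The settings without a filter or with a minimum mean of 1 removed no gene, and the replicate block and eBayes without trend leave fold changes as they are by construction, so they say nothing of the stability of the 4 fold changes. The number of genes called lower was 188 with median-ratio scaling, against 327.

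Leaving out a library gave log2 fold changes of 3.81 to 4.23 for Acta1, 3.56 to 4.39 for Xirp2, 1.49 to 2.10 for Cnn1 and 4.35 to 5.86 for Sprr1a. The lowest values were those without PAB replicate 1. Without it the ratio of means fell from 19.7 to 11.8 for Xirp2 and from 69.4 to 26.7 for Sprr1a. Called genes numbered 589 to 614 in all, 272 to 287 higher and 316 to 327 lower, and 275 to 289 genes were higher in PAB without overlap.

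Replicate numbers are shared between the groups, but nothing in the labels pairs them, and same-numbered libraries did not deviate together (correlations of -0.06, -0.05 and -0.20). With the replicate block 616 genes were called, 289 of them higher, against 617 and 290 without it, and the members' fold changes are the same by construction. Tests on counts with edgeR or DESeq2 were not run on these normalized values.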
